A study of Mus musculus with 15 samples.

Results

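Translation initiation factors are the proteins that bring the initiator tRNA, the small ribosomal subunit and an mRNA together before a peptide chain begins. Here they were taken as every gene of the deposited count table whose symbol starts with Eif and a digit from 1 to 6, without the eIF2 kinases and pseudogenes and with the eIF4E-binding proteins. The rule found 69 genes, the members of the family here, among the 25639 in the table. It used no measured value itself, though it was chosen with earlier results of these data known. The libraries, 15 in 5 groups of 3, were made from RAW264.7, a line of mouse cells that behave like macrophages, wild type per the labels. Cells were given the peptide LCCL at 10 µg for 24 h, at 1 µg for 24 h, at 10 µg for 6 h or at 1 µg for 6 h, and the fifth group was left untreated. Each dose is stated without a volume, no group received a vehicle alone as far as the labels say, and when the untreated cells were harvested is not labelled. Time in culture therefore cannot be told apart from the peptide in comparisons with untreated cells. All 15 libraries carry 1 batch label. Nothing in the labels says that the 3 libraries of a group came from separate cultures, so the spread behind each p-value is that between libraries and may be technical.

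Initiation in animal cells runs through a chain of complexes. The eIF2 complex carries the methionyl initiator tRNA to the small subunit, eIF2B recharges eIF2 with GTP after each round, eIF3 holds the small subunit open for mRNA, and the eIF4F complex finds the cap and unwinds the leader. The eIF4E-binding proteins block eIF4F assembly until the kinase mTORC1 phosphorylates them, and phosphorylation of the alpha subunit of eIF2 by stress kinases turns it into an inhibitor of eIF2B. Macrophages are known to use both controls when they are activated, since cytokine mRNAs are among those that depend on them. RNA levels do not report phosphorylation, so the values below describe the supply of transcripts and not the activity of the factors.

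Of the 69 genes, 50 had enough reads to be tested, and their totals over the 15 libraries ran from 700 to 432309 counts. The 19 that were not tested were 16 numbered relatives of Eif1ad, Eif5a2 with 11 counts in all, and Eif4enif1 and Eif4e1b, which were listed at 0. No untested gene passed 4 counts in any library, and 8 of them were at 0 in every library. Library totals were 19085148 to 22434642 counts, so that 3 counts correspond to 0.13 to 0.16 CPM, the count of a gene scaled to a library size that was adjusted by the trimmed mean of M-values (TMM). All 8 macrophage markers were tested. Their summed level, most of it Lyz2, was 10009 to 11049 CPM at 10 µg for 24 h, 12119.6 to 14318 CPM at 1 µg for 24 h, 12671 to 12893 CPM at 10 µg for 6 h, 12677 to 13162 CPM at 1 µg for 6 h and 12963 to 13385 CPM in untreated cells. Lyz2 averaged 7573 CPM at 10 µg for 24 h, 9801 CPM at 1 µg for 24 h and 9936 CPM in untreated cells, and Csf1r 841 CPM, 1306 CPM and 1439 CPM in the same groups. Adgre1, Itgam and Fcgr1 had higher levels at 24 h than in untreated cells. Adgre1 averaged 61.7 CPM at 10 µg, 63.6 CPM at 1 µg and 41.3 CPM in untreated cells, Itgam 261 CPM, 344 CPM and 202 CPM, and Fcgr1 30.1 CPM, 22.6 CPM and 13.1 CPM. In the same order, lower means at 24 h were found for Spi1 (309 CPM, 305 CPM and 341 CPM) and Tyrobp (185 CPM, 183 CPM and 199.6 CPM). The untreated libraries of Tyrobp ran from 172 to 253 CPM. Cd68 averaged 1180.2 CPM at 10 µg, 853 CPM at 1 µg and 990.2 CPM in untreated cells, so the sum does not stand for each marker. Summed markers reached at most 0.82 CPM for B cells, 1.17 CPM for neutrophils, 0.101 CPM for fibroblasts and 0.0534 CPM for epithelium. The T cell list summed to 27.1 to 30.9 CPM at 10 µg for 24 h, 31.0 to 39.8 CPM at 1 µg for 24 h, 34.7 to 53.1 CPM at 10 µg for 6 h, 44.7 to 45.9 CPM at 1 µg for 6 h and 40.4 to 46.9 CPM in untreated cells, nearly all of it Cd247, while Cd3e and Cd3g were at 0 in every library. Whether these marker differences take part in the results below was not tested, and in bulk RNA fewer cells of a kind cannot be told apart from less RNA per cell.

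Per kilobase of transcript, Eif5a and genes of the eIF4 group led the 48 tested members whose length could be matched, which leaves out Eif4a3l1 and Eif4a3l2. Divided by the median length of the protein-coding transcripts of each gene, the untreated level was 667 CPM per kb for Eif5a, the hypusine-carrying factor that also serves elongation. Next came 261 CPM per kb for Eif4g2, an eIF4G relative that lacks the eIF4E-binding region, and 216 CPM per kb for Eif4a1, the RNA helicase of eIF4F. Eif4e, the cap-binding protein, was at 209 CPM per kb and Eif4g1, the scaffold that joins cap, helicase and eIF3, at 193 CPM per kb. The low end of these 48 held Eif4ebp3, an eIF4E-binding protein, with 9.57 CPM per kb, and Eif3j1, a gene for the loosely bound eIF3 subunit j, with 3.78 CPM per kb. Reads on the tested and untested members together made up 0.892% ± 0.0164 of all counts at 10 µg for 24 h, 0.89% ± 0.0277 at 1 µg for 24 h, 0.99% ± 0.00307 at 10 µg for 6 h, 1.01% ± 0.00327 at 1 µg for 6 h and 1.01% ± 0.00654 in untreated cells (SD, n = 3 each). The share was thus lower in all 6 libraries from 24 h than in the other 9.

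At 6 h a single call was made in the family by the fit of all 15 libraries. At 10 µg, 1 of the 50 tested members passed an adjusted p of 0.05, where 5.95% of all 12401 tested genes did, 4.09% higher and 1.86% lower. The 1 member was Eif4e, which encodes the protein that binds the mRNA cap. Its level was 192, 185 and 188 CPM at 10 µg for 6 h, against 174, 165 and 159 CPM in untreated cells. The groups did not overlap, and the log2 fold change was 0.18 ± 0.05, adjusted p = 0.0366. That call ended when either the second or the third untreated library was left out (adjusted p = 0.108 and 0.198), under relative log expression (RLE) scaling (adjusted p = 0.0506), and without any 1 of the 10 µg libraries (adjusted p = 0.135, 0.084 and 0.106). Closest to the threshold after Eif4e were Eif4ebp2, the second eIF4E-binding protein, with a log2 fold change of -0.15 ± 0.05, adjusted p = 0.0562, and Eif2d, a factor that can place initiator tRNA without eIF2, with -0.15 ± 0.05, adjusted p = 0.0635. Both passed when the libraries were scaled that way or tested with DESeq2, and 9 of the 50 members had an unadjusted p under 0.05. The count of members called was thus not fixed. It was 7 when only the groups compared were fitted, 3 higher and 4 lower, and 4 with DESeq2, 1 higher and 3 lower.

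At 1 µg for 6 h no member passed edgeR's test, and none passed with DESeq2, where 0% of all tested genes were called by edgeR. Unadjusted p-values under 0.05 were found for 2 members, Eif3e and Eif3l, both eIF3 subunits. Between the doses at 6 h, edgeR called 0 members and 2.35% of all genes (1.85% higher and 0.492% lower), DESeq2 called 1 and 6 members had an unadjusted p under 0.05. When edgeR was fitted to only these groups it called 4 members, 2 higher and 2 lower. Across the 50 members the 10 µg log2 fold changes at 6 h lay between -0.21 and 0.24.

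At 24 h most tested members were called, mostly lower, with a small set of members going up. At 10 µg, 41 of the 50 tested members changed, 11 rising and 30 falling, where 70.3% of all tested genes were called, 35.4% higher and 34.9% lower. The 1 µg dose gave 43, of which 11 rose and 32 fell, where 61.8% of all genes were called, 30.8% higher and 31.0% lower. The called share of the tested members was 82% at 10 µg and 86% at 1 µg. The median log2 fold change of the 50 members was -0.26 at 10 µg and -0.33 at 1 µg, where that of all genes was 0.01 at both doses. Without regard to direction the medians lay closer. They were 0.407 for members and 0.396 for all genes at 10 µg, and 0.353 and 0.299 at 1 µg. Both comparisons use the same 3 untreated libraries. A pair of log2 fold changes in the next paragraphs gives 10 µg and then 1 µg, each at 24 h against untreated cells. Scaling by library size alone ended the calls of Eif2b3, Eif3i, Eif5 and Eif4a2 at 10 µg (adjusted p from 0.151 to 0.645) and of Eif3i, Eif4g3, Eif3k and Eif3d at 1 µg (adjusted p from 0.0532 to 0.505). Eif4ebp1, an eIF4E-binding protein, had the highest fold change at either dose, and Eif5a, Eif3b and Eif4g1 had the 3 lowest. In the plot of changes at 24 h the falls spread over every complex, while the panels for 6 h stay close to 0.

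**Figure D1:**
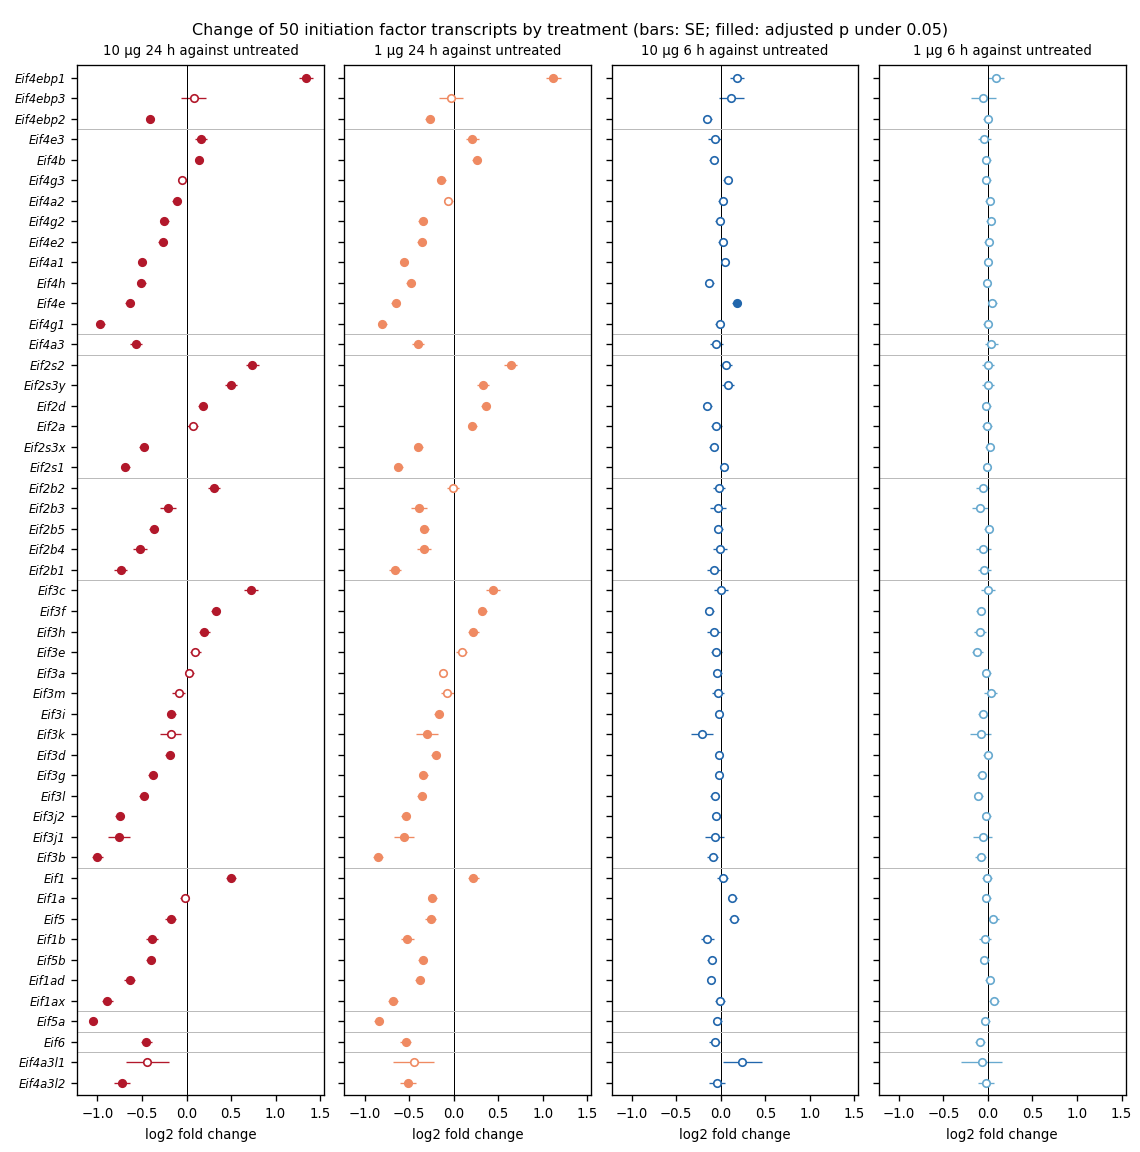
Log2 fold changes against untreated cells of the 50 tested members, 1 per line and grouped by role, in a panel each for 10 µg 24 h, 1 µg 24 h, 10 µg 6 h and 1 µg 6 h. Bars are 1 SE and filled points passed an adjusted p of 0.05; at 10 µg for 24 h Eif4ebp1 is farthest right (1.34) and Eif5a farthest left (-1.05), while the 6 h panels hold 1 filled point, Eif4e.

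The inhibitors of eIF4F went different ways. Eif4ebp1, the eIF4E-binding protein best known as an mTORC1 substrate, stood at 133, 127 and 126 CPM at 10 µg for 24 h, 93.4, 117 and 121 CPM at 1 µg for 24 h, 55.6, 60.7 and 57 CPM at 10 µg for 6 h, 54.1, 52.6 and 56.3 CPM at 1 µg for 6 h, and 54.9, 45.4 and 52.5 CPM in untreated cells. All 6 libraries from 24 h lay above the other 9. The rise was a log2 fold change of 1.34 ± 0.08 (SE, adjusted p = 3.29e-11) at 10 µg and of 1.12 ± 0.08 (adjusted p = 1.08e-09) at 1 µg. Eif4ebp2, its close relative, averaged 124 ± 6.95 CPM at 10 µg for 24 h, 137 ± 5.11 CPM at 1 µg for 24 h and 164 ± 6.52 CPM in untreated cells (SD, n = 3 each), so it fell, with a log2 fold change of -0.41 ± 0.05 (SE, adjusted p = 3.66e-08) at 10 µg and of -0.27 ± 0.05 (adjusted p = 3.38e-05) at 1 µg. Eif4ebp3 had 8.96, 7.36 and 6.22 CPM at 10 µg for 24 h, 6.76, 6.69 and 7.44 CPM at 1 µg for 24 h and 7.17, 6.39 and 7.8 CPM in untreated cells. Those groups overlapped, and the log2 fold changes were 0.08 ± 0.14, adjusted p = 0.629, at 10 µg and -0.03 ± 0.14, adjusted p = 0.855, at 1 µg. Eif4ebp3 shares its strand with AC115631.1 in the reference annotation, so its reads could come from either.

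The cap-binding protein that the inhibitors hold fell at 24 h. Eif4e had 107, 112 and 101 CPM at 10 µg for 24 h, 99.9, 115 and 103 CPM at 1 µg for 24 h, 192, 185 and 188 CPM at 10 µg for 6 h, 175, 166 and 173 CPM at 1 µg for 6 h, and 174, 165 and 159 CPM in untreated cells. Its 24 h levels were below all others, the highest levels being those at 10 µg for 6 h, and it fell, with a log2 fold change of -0.64 ± 0.05 (SE, adjusted p = 7.55e-11) at 10 µg and of -0.65 ± 0.05 (adjusted p = 1.42e-10) at 1 µg. Counts of Eif4ebp1 set against those of Eif4e in the same library need no scaling between libraries. That ratio was 1.25, 1.13 and 1.24 at 10 µg for 24 h and 0.935, 1.02 and 1.17 at 1 µg for 24 h, against 0.315, 0.275 and 0.331 in untreated cells. At 6 h it was 0.29, 0.329 and 0.303 with 10 µg and 0.31, 0.316 and 0.325 with 1 µg, all within the untreated range. This pair, like the other 3 pairs given as ratios, was chosen after its values were seen and is a description.

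Of the 10 tested genes of eIF4F and its cofactors, 2 rose and 7 fell at either dose. Of these genes 90% were called at 10 µg, against 70.3% of all tested genes, and 90% at 1 µg, against 61.8%. The scaffold gene Eif4g1 had 524, 531 and 549.8 CPM at 10 µg for 24 h, 611, 637 and 554 CPM at 1 µg for 24 h, 1042, 1052 and 1028 CPM at 10 µg for 6 h, 1074, 1046 and 1036 CPM at 1 µg for 6 h, and 1051, 1039.5 and 1056 CPM in untreated cells. The groups from 24 h and the other 3 did not overlap, and the fall was a log2 fold change of -0.97 ± 0.05 (SE, adjusted p = 6.14e-15) at 10 µg and of -0.80 ± 0.05 (adjusted p = 7.68e-13) at 1 µg. The helicase genes had smaller changes. Eif4a1 averaged 271 ± 6.89 CPM at 10 µg for 24 h, 259.7 ± 2.28 CPM at 1 µg for 24 h and 382 ± 3.42 CPM in untreated cells (log2 fold changes -0.50 and -0.56), and Eif4a2, the second helicase, had log2 fold changes of -0.11 ± 0.05, adjusted p = 0.038, at 10 µg and -0.06 ± 0.05, adjusted p = 0.299, at 1 µg. The 10 µg call of Eif4a2 ended without untreated library 1 or 2 (adjusted p = 0.127 and 0.113) or 10 µg library 1 or 3 (adjusted p = 0.192 and 0.0516). The helicase cofactors split: Eif4h fell, with log2 fold changes of -0.51 and -0.48, and Eif4b rose, with 0.14 and 0.26. The small Eif4b rise at 10 µg missed the threshold without 10 µg library 3 (adjusted p = 0.0719).

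Among the relatives of eIF4G and eIF4E, Eif4g2 fell. It averaged 1269.8 ± 65.3 CPM at 10 µg for 24 h, 1185 ± 50.1 CPM at 1 µg for 24 h and 1508 ± 26.3 CPM in untreated cells, with log2 fold changes of -0.25 and -0.35. Eif4g3, a second scaffold, passed at 1 µg and not at 10 µg, with log2 fold changes of -0.05 ± 0.05, adjusted p = 0.399, at 10 µg and -0.14 ± 0.05, adjusted p = 0.016, at 1 µg. That call ended without untreated library 2 or 3 (adjusted p = 0.0968 and 0.0571), and the doses themselves differed by 0.09 ± 0.05, adjusted p = 0.152. Eif4e2, a cap-binding protein that does not join eIF4G and acts in repression, fell, with log2 fold changes of -0.27 and -0.36. Eif4e3, an atypical cap-binding protein, averaged 28.8 ± 2.68 CPM at 10 µg for 24 h, 29.7 ± 0.757 CPM at 1 µg for 24 h and 25.7 ± 0.317 CPM in untreated cells. Its rises were small, with log2 fold changes of 0.16 ± 0.07, adjusted p = 0.0491, at 10 µg and 0.21 ± 0.07, adjusted p = 0.0146, at 1 µg. At 10 µg the call ended in 10 of the 12 alternatives. It ended under RLE scaling (adjusted p = 0.0512), with the replicate block (adjusted p = 0.0592), with only the groups compared (adjusted p = 0.0637), with DESeq2 (adjusted p = 0.0772) and without the low-count filter (adjusted p = 0.0903). It also ended in 5 of the 6 fits that left out 1 library, that without 10 µg library 1 excepted, with adjusted p-values between 0.0819 and 0.202. At 1 µg it ended without 1 µg library 2 (adjusted p = 0.0539). Eif4e3 also shares its strand with a predicted gene, Gm20696, in the reference annotation, so its reads could come from either.

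**Figure D2:**
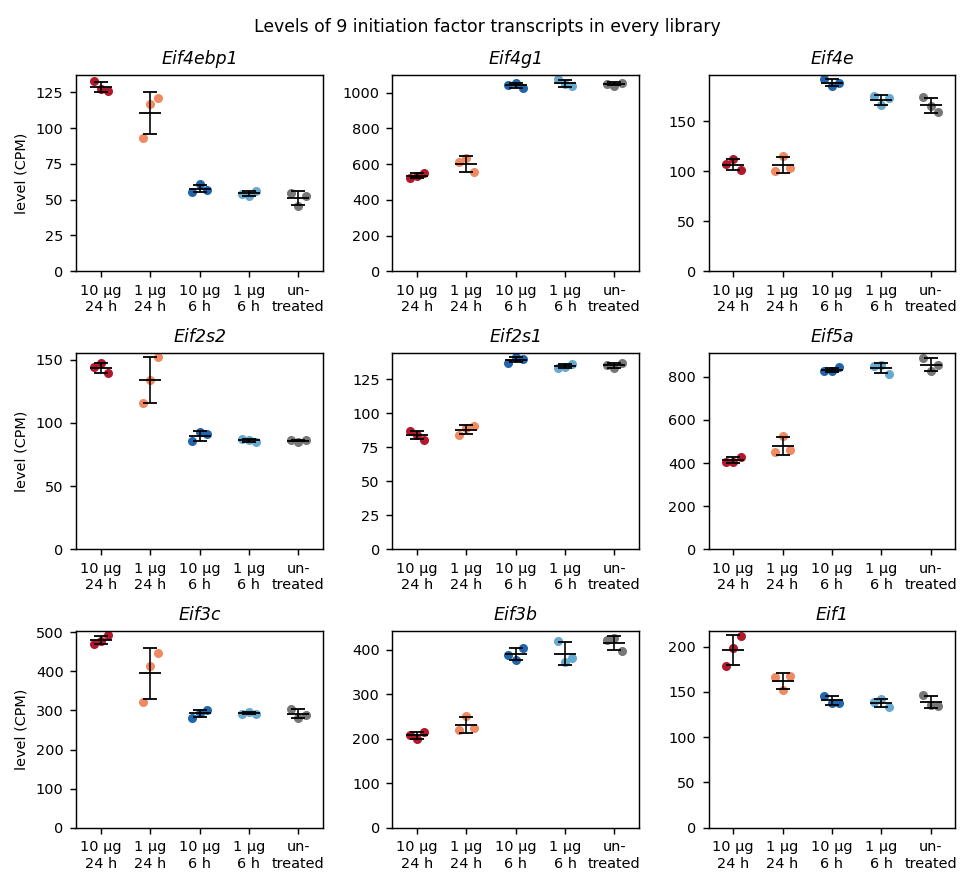
Level in CPM in each of the 15 libraries for 9 members, by group, with bars for the mean and SD of 3 libraries. Eif4ebp1 averaged 129 ± 4.2 CPM at 10 µg for 24 h and 50.9 ± 4.91 CPM in untreated cells. For eIF2 and eIF3 one panel is high at 24 h (Eif2s2, Eif3c) and another is low (Eif2s1, Eif3b). Both eIF4F panels, Eif4g1 and Eif4e, are low at 24 h.

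Many genes of the translation machinery are known targets of MYC-type factors, which bind the E-box CACGTG, and amino acid stress genes carry a C/EBP-ATF element with the core TGATGNAA. Both motifs were searched on both strands of RefSeq promoter windows (GRCm38.p6) that ran from 250 bases before to 50 bases after a gene start. The submitters' processing notes name GRCm39 for the reads, and the windows were matched by symbol, for 38 of the 50 tested members with 47 windows between them. CACGTG was in 23.4% of these 47 windows and in 7.15% of all 32851 windows. Counted by gene, it was in 23.7% of the 38 members and in 8.09% of all 27025 genes with a window. TGATGNAA was in 2.13% of the 47 windows, the single gene being Eif2s3x, and in 3.97% of all windows. Of the 11 members higher at 10 µg for 24 h, 8 had a window. Eif4ebp1, which had the highest fold change, Eif3h and Eif4e3 had none, so neither motif was searched for these genes. The 9 tested members with CACGTG were Eif1b, Eif3a, Eif3f, Eif3k, Eif4a1, Eif4e, Eif4g1, Eif4h and Eif5a. By their call at 10 µg for 24 h, 1 of 8 higher members with a window, 6 of 24 lower members and 2 of 6 members not called had it. A match describes the letters of the window and says nothing of binding. The 250 bases before the start are shown 5′ to 3′ on the strand of the gene, in lower case with CACGTG in capitals, for 4 members that fell (Eif4e, Eif4g1, Eif5a, Eif4a1) and 2 that rose, Eif3f with the motif and Eif2s2 with neither. Eif5a has 6 windows, of which 3 hold CACGTG, and Eif4e has 2, of which 1 does, and 1 window with the motif is shown for each. The shown Eif5a window overlaps another that holds the same match. The other 4 genes have 1 window each. They lie at chr3:138527018-138527267, plus strand (Eif4e), chr16:20672477-20672726, plus strand (Eif4g1), chr11:69921387-69921636, minus strand (Eif5a), chr11:69672424-69672673, minus strand (Eif4a1), chr7:108934165-108934414, plus strand (Eif3f), chr2:154892907-154893156, minus strand (Eif2s2).
Eif4e: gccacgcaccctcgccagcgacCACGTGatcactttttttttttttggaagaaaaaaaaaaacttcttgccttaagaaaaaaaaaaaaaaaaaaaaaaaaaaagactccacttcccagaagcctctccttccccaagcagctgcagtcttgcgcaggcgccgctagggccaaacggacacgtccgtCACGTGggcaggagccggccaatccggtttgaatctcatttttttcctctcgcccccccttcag
Eif4g1: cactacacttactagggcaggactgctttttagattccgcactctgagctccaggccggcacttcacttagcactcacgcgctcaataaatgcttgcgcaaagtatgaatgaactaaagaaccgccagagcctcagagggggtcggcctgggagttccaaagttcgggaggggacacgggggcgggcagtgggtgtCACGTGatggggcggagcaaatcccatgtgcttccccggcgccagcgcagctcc
Eif5a: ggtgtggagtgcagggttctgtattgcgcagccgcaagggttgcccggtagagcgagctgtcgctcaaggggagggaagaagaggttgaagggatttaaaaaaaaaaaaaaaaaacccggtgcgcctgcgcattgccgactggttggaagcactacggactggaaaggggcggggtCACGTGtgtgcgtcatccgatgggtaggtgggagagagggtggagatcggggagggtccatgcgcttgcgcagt
Eif4a1: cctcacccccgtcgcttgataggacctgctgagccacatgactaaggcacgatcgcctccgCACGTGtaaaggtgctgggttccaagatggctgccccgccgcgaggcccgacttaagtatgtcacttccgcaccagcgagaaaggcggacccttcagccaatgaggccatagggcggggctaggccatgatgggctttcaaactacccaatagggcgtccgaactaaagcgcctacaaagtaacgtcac
Eif3f: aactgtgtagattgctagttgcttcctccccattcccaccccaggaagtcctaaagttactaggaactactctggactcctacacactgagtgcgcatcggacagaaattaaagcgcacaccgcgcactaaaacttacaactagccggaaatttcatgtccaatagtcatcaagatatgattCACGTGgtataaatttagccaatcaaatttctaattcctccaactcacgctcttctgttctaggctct
Eif2s2: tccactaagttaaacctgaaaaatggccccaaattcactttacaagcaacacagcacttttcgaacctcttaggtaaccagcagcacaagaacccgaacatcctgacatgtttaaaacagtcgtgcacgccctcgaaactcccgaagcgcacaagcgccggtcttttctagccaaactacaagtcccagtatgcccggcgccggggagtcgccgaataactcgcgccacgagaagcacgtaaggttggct

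The subunits of eIF2 did not move together. Eif2s1 encodes the alpha subunit, the one that stress kinases phosphorylate, and it averaged 83.7 ± 3.1 CPM at 10 µg for 24 h, 87.9 ± 3.26 CPM at 1 µg for 24 h and 135 ± 2.02 CPM in untreated cells. It fell, with a log2 fold change of -0.69 ± 0.05 (SE, adjusted p = 7.74e-13) at 10 µg and of -0.62 ± 0.05 (adjusted p = 1.7e-11) at 1 µg. Eif2s2 encodes the beta subunit, which contacts eIF2B and eIF5, and had 144, 147 and 139.5 CPM at 10 µg for 24 h, 116, 134 and 152 CPM at 1 µg for 24 h, 85.5, 92.5 and 91.4 CPM at 10 µg for 6 h, 87, 86.8 and 84.8 CPM at 1 µg for 6 h, and 86.3, 85.2 and 86.3 CPM in untreated cells. It was higher in each library from 24 h than in any other, and the rise was a log2 fold change of 0.74 ± 0.07 (SE, adjusted p = 4.79e-10) at 10 µg and of 0.64 ± 0.07 (adjusted p = 1.11e-08) at 1 µg. Counts of Eif2s2 over those of Eif2s1 in the same library were 1.66, 1.75 and 1.73 at 10 µg for 24 h and 1.38, 1.51 and 1.68 at 1 µg for 24 h, against 0.641, 0.64 and 0.629 in untreated cells. Every library from 24 h lay above every untreated one in this ratio.

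The gamma subunit, which binds the tRNA and GTP, has an X-linked and a Y-linked gene in mice, and these moved apart too. Eif2s3x averaged 155 ± 9.35 CPM at 10 µg for 24 h, 164 ± 4.61 CPM at 1 µg for 24 h and 216 ± 4.81 CPM in untreated cells and fell (log2 fold changes -0.48 and -0.40), while Eif2s3y averaged 74.2 ± 4.46 CPM at 10 µg for 24 h, 65.8 ± 4.65 CPM at 1 µg for 24 h and 52.4 ± 4.69 CPM in untreated cells and rose (log2 fold changes 0.50 and 0.33). Counts of Eif2s3y over Eif2s3x were 0.499, 0.515 and 0.424 at 10 µg for 24 h and 0.392, 0.385 and 0.429 at 1 µg for 24 h, against 0.239, 0.261 and 0.227 in untreated cells. The sequences of this pair are close, so reads may be split between them in a way the counting settled. Eif2d had 94.5, 96.9 and 99.2 CPM at 10 µg for 24 h, 104, 115 and 110.1 CPM at 1 µg for 24 h, and 83.3, 87.3 and 86.5 CPM in untreated cells. It rose at both doses, with a log2 fold change of 0.18 ± 0.05 (SE, adjusted p = 0.00222) at 10 µg and of 0.36 ± 0.05 (adjusted p = 4.81e-07) at 1 µg. Eif2a, which despite its symbol is no eIF2 subunit but a separate tRNA carrier, had log2 fold changes of 0.07 ± 0.06, adjusted p = 0.248, at 10 µg and 0.21 ± 0.05, adjusted p = 0.00162, at 1 µg. Eif2d overlaps Rassf5 and Eif2a overlaps Serp1 on the other strand, and the strand setting of the counting is not given in the sources used here.

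Of the 5 eIF2B genes, 4 fell at either dose. Calls thus covered 100% of them at 10 µg (all tested genes, 70.3%) and 80% at 1 µg (all tested genes, 61.8%). Eif2b1, the alpha subunit that ties the complex together, averaged 30.1 ± 2.4 CPM at 10 µg for 24 h, 31.8 ± 2.22 CPM at 1 µg for 24 h and 50.2 ± 3.42 CPM in untreated cells, with log2 fold changes of -0.74 and -0.66. Eif2b5, the catalytic epsilon subunit, averaged 66.7 ± 2.26 CPM at 10 µg for 24 h, 68.5 ± 4.32 CPM at 1 µg for 24 h and 86.4 ± 3.63 CPM in untreated cells. Its fall was a log2 fold change of -0.37 ± 0.05 (SE, adjusted p = 1.06e-06) at 10 µg and of -0.33 ± 0.05 (adjusted p = 8.16e-06) at 1 µg. Eif2b4, the delta subunit, had log2 fold changes of -0.52 and -0.33 and Eif2b3, the gamma subunit, of -0.21 and -0.39. The 10 µg call of Eif2b3 ended without untreated library 2 or 3 (adjusted p = 0.0723 and 0.0983) or 10 µg library 2 or 3 (adjusted p = 0.123 and 0.2), and with DESeq2 (adjusted p = 0.051). Eif2b2, the beta subunit, went its own way. It had 48.9, 54.9 and 56.5 CPM at 10 µg for 24 h, 39.3, 43.2 and 45.9 CPM at 1 µg for 24 h, 40.6, 41.1 and 45 CPM at 10 µg for 6 h, 44.3, 39.7 and 39.9 CPM at 1 µg for 6 h, and 42.8, 44.3 and 41.7 CPM in untreated cells. Only the 10 µg 24 h libraries lay above all others: the log2 fold change was 0.31 ± 0.07, adjusted p = 0.000226, at 10 µg and -0.01 ± 0.07, adjusted p = 0.944, at 1 µg.

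Among the 14 eIF3 genes, 3 rose and 7 fell at 10 µg for 24 h, and 3 rose and 8 fell at 1 µg. The called share was 71.4% at 10 µg, where that of all tested genes was 70.3%, and 78.6% at 1 µg, where it was 61.8%. Eif3b, part of the core that organises the complex on the small subunit, had 208, 199 and 216 CPM at 10 µg for 24 h, 219, 251 and 224 CPM at 1 µg for 24 h, 389, 378 and 404 CPM at 10 µg for 6 h, 420.4, 373 and 382 CPM at 1 µg for 6 h, and 423, 426 and 397 CPM in untreated cells. All 24 h libraries were below all others, and the fall was a log2 fold change of -1.0 ± 0.06 (SE, adjusted p = 3.82e-14) at 10 µg and of -0.85 ± 0.06 (adjusted p = 3.11e-12) at 1 µg. Eif3c, another core subunit, rose. It averaged 480.4 ± 11.1 CPM at 10 µg for 24 h, 395 ± 64.7 CPM at 1 µg for 24 h and 292 ± 11.9 CPM in untreated cells (SD, n = 3 each), with a log2 fold change of 0.72 ± 0.08 (SE, adjusted p = 3.1e-07) at 10 µg and of 0.44 ± 0.08 (adjusted p = 0.000145) at 1 µg. Counts of Eif3c over Eif3b in the same library were 2.27, 2.39 and 2.29 at 10 µg for 24 h and 1.48, 1.65 and 2 at 1 µg for 24 h, against 0.722, 0.662 and 0.727 in untreated cells. Within the core, then, one transcript rose and one fell. Eif3a, the largest core subunit, averaged 868 ± 43.3 CPM at 10 µg for 24 h, 782 ± 63.7 CPM at 1 µg for 24 h and 850.4 ± 20.8 CPM in untreated cells, and its log2 fold changes were 0.03 ± 0.05, adjusted p = 0.64, at 10 µg and -0.12 ± 0.05, adjusted p = 0.0544, at 1 µg. The 1 µg difference passed without 1 µg library 2 or 3 (adjusted p = 0.0116 and 0.0371).

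The outer eIF3 subunits split as well. Eif3f, one of the MPN-domain subunits, had 203, 210.2 and 222 CPM at 10 µg for 24 h, 203, 207 and 221 CPM at 1 µg for 24 h, 151, 148 and 159 CPM at 10 µg for 6 h, 164, 159 and 153 CPM at 1 µg for 6 h, and 171, 165 and 168 CPM in untreated cells. It rose, with a log2 fold change of 0.33 ± 0.05 (SE, adjusted p = 1.08e-06) at 10 µg and of 0.32 ± 0.05 (adjusted p = 2.68e-06) at 1 µg. Its MPN partner Eif3h rose less, with log2 fold changes of 0.20 and 0.22, and its calls ended without 10 µg library 1 (adjusted p = 0.0601) and without 1 µg library 3 (adjusted p = 0.0528). Falls were found for both genes of subunit j, which helps load and release the complex. The log2 fold changes were -0.76 and -0.56 for Eif3j1 and -0.75 and -0.54 for Eif3j2, whose near-identical sequences may share reads. Each also shares its strand with a predicted gene, Eif3j1 with Gm47314 and Eif3j2 with Gm27325. Subunits l, g, d and i also fell. Their log2 fold changes at 10 µg and 1 µg were -0.48 and -0.36 for Eif3l, -0.38 and -0.34 for Eif3g, -0.19 and -0.20 for Eif3d, which can itself bind the cap of some mRNAs, and -0.17 and -0.17 for Eif3i. Eif3e and Eif3m passed at neither dose, with log2 fold changes of 0.10 and 0.09 for Eif3e and -0.09 and -0.07 for Eif3m. Eif3k had -0.18 ± 0.12, adjusted p = 0.18, at 10 µg and -0.30 ± 0.12, adjusted p = 0.0402, at 1 µg, and its 1 µg call ended in all 6 fits that left out 1 library (adjusted p between 0.0581 and 0.149) and without the low-count filter (adjusted p = 0.0837).

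The set listed under scanning and choice of the start codon includes Eif1ad, whose part in either was not tested. In it, 1 of 7 genes rose and 5 fell at 10 µg, and 1 rose and 6 fell at 1 µg. Of these genes 85.7% were called at 10 µg, against 70.3% of all tested genes, and 100% at 1 µg, against 61.8%. The riser was Eif1, the gatekeeper that rejects poor start codons. It had 179, 199 and 212 CPM at 10 µg for 24 h, 166, 152 and 168 CPM at 1 µg for 24 h, 146, 138 and 138 CPM at 10 µg for 6 h, 139, 142 and 133 CPM at 1 µg for 6 h, and 147, 136 and 134 CPM in untreated cells. Levels at 10 µg for 24 h were above those of every other library, and it rose, with a log2 fold change of 0.50 ± 0.06 (SE, adjusted p = 2.6e-08) at 10 µg and of 0.22 ± 0.06 (adjusted p = 0.00185) at 1 µg. Its relative Eif1b fell, with log2 fold changes of -0.39 and -0.52. Eif1ax, the X-linked gene for eIF1A, the factor that steadies the tRNA during scanning, averaged 40.2 ± 0.913 CPM at 10 µg for 24 h, 46.5 ± 1.34 CPM at 1 µg for 24 h and 74.3 ± 7.55 CPM in untreated cells and fell (log2 fold changes -0.89 and -0.68). The second eIF1A gene, Eif1a, differed between the doses. It had 187, 208 and 197 CPM at 10 µg for 24 h, 174, 170.3 and 165 CPM at 1 µg for 24 h, and 204, 199.9 and 196 CPM in untreated cells, with log2 fold changes of -0.02 ± 0.05, adjusted p = 0.711, at 10 µg and -0.24 ± 0.05, adjusted p = 0.000103, at 1 µg. Both genes are close in sequence, and their reads may be shared.

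Eif1ad, named for its eIF1A-like domain, had 59.8, 60.5 and 57.8 CPM at 10 µg for 24 h, 67.9, 75.4 and 69.5 CPM at 1 µg for 24 h, and 96.4, 92.9 and 87.9 CPM in untreated cells. The groups did not overlap. It fell, with a log2 fold change of -0.64 ± 0.06 (SE, adjusted p = 1.42e-10) at 10 µg and of -0.38 ± 0.05 (adjusted p = 1.41e-06) at 1 µg, and it overlaps Banf1 on the other strand. Eif5, which triggers GTP hydrolysis by eIF2 at the start codon, averaged 288 ± 28.3 CPM at 10 µg for 24 h, 272 ± 16.1 CPM at 1 µg for 24 h and 326 ± 2.87 CPM in untreated cells and fell slightly, with log2 fold changes of -0.18 and -0.26. Its 10 µg call ended without 10 µg library 1 (adjusted p = 0.114). Eif5b, the GTPase that joins the large subunit, fell, with log2 fold changes of -0.40 and -0.35.

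Eif5a, Eif6 and Eif4a3 fell. Eif5a had 406, 406 and 429.8 CPM at 10 µg for 24 h, 453, 525 and 459 CPM at 1 µg for 24 h, 829, 827 and 844 CPM at 10 µg for 6 h, 852, 854 and 815 CPM at 1 µg for 6 h, and 887, 827 and 856 CPM in untreated cells. No library from 24 h came near those of the other groups, and the fall was a log2 fold change of -1.05 ± 0.05 (SE, adjusted p = 5.97e-15) at 10 µg and of -0.84 ± 0.05 (adjusted p = 1.48e-12) at 1 µg. Eif6, which keeps free large subunits from joining early, averaged 72.1 ± 4.79 CPM at 10 µg for 24 h, 67.8 ± 5.93 CPM at 1 µg for 24 h and 98.7 ± 4.98 CPM in untreated cells. It fell, with a log2 fold change of -0.45 ± 0.06 (SE, adjusted p = 2.42e-07) at 10 µg and of -0.54 ± 0.06 (adjusted p = 2.3e-08) at 1 µg, and overlaps Gm16098 on the other strand. Eif4a3 belongs to the exon junction complex rather than to eIF4F, and its log2 fold changes were -0.57 and -0.40. Of its copies, Eif4a3l2 fell, with -0.73 and -0.51, and Eif4a3l1, at 2.47 CPM in untreated cells, had -0.44 ± 0.24, adjusted p = 0.0973, at 10 µg and -0.45 ± 0.23, adjusted p = 0.102, at 1 µg. Reads of these 3 near-identical genes may be shared. Other members overlap a gene on the other strand in the reference annotation, with the same limit: Eif2b4 with Snx17, Eif4a2 with Rfc4, Eif5b with Rev1, Eif3j1 with Spg11, Eif3m with Ccdc73, Eif3d with Gm17638 and Eif1b with D830035M03Rik.

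At 24 h the doses could be compared without the untreated cells. Library 1 of the 1 µg group stood apart from its replicates. The chi-square per degree of freedom of its counts was 13.5 against library 2 and 15.2 against library 3. Libraries 2 and 3 gave 5.71, and the highest value in any other group was 7.13. Fits without library 1 are among those given in the next paragraph. Between 10 µg and 1 µg, 18 of the 50 members differed, 7 higher and 11 lower at 10 µg, where 35.3% of all tested genes were called, 16.0% higher and 19.3% lower. Member differences ran from -0.26 to 0.32 log2 units. Over all tested genes the range was -6.33 to 9.47. Higher at 10 µg were Eif2b2 (0.32 ± 0.07, adjusted p = 0.000534), Eif1 (0.28 ± 0.06, adjusted p = 0.00039), Eif1a (0.22 ± 0.05, adjusted p = 0.000642), Eif3c (0.28), Eif4ebp1 (0.22), Eif2s3y (0.17) and Eif3a (0.15). Of these, Eif2s3y and Eif3a overlapped between the doses, and Eif2b2, Eif1, Eif1a, Eif3c and Eif4ebp1 did not. The share of all tested genes without such overlap was not counted. The 1 µg libraries of Eif2b2 overlapped the untreated ones, and those of Eif1a lay below them. Lower at 10 µg were Eif1ad (-0.26 ± 0.06, adjusted p = 0.000686), Eif5a (-0.21 ± 0.05, adjusted p = 0.0028), Eif3j2 (-0.21 ± 0.05, adjusted p = 0.00233), Eif1ax (-0.21), Eif2d (-0.18), Eif4g1 (-0.17), Eif3b (-0.15), Eif2a (-0.14), Eif4ebp2 (-0.14), Eif4b (-0.13) and Eif3l (-0.12). Eif3j2 had 101, 94.6 and 98.3 CPM at 10 µg for 24 h, against 110.2, 123 and 107 CPM at 1 µg for 24 h, without overlap. Among the lower members only Eif2a and Eif4b overlapped between the doses.

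Only 8 of these 18 dose differences passed in each of the 12 alternatives run: Eif2b2, Eif1, Eif1a, Eif2d, Eif1ax, Eif3j2, Eif5a and Eif1ad. The same 8 were the ones called when just these 6 libraries were fitted. Among the calls of the inhibitors and of eIF4F, those that ended with a library left out were Eif4ebp1 without 10 µg library 1, 2 or 3 or 1 µg library 1 (adjusted p from 0.0608 to 0.16), Eif4ebp2 without 10 µg library 1 or 1 µg library 3 (adjusted p from 0.0892 to 0.111), Eif4g1 without 1 µg library 2 (adjusted p = 0.0619) and Eif4b without 10 µg library 1 or 2 or 1 µg library 2 or 3 (adjusted p from 0.0653 to 0.103). For eIF2 and its relatives they were Eif2s3y without 10 µg library 1 or 2 or 1 µg library 1 or 2 (adjusted p from 0.0707 to 0.228) and Eif2a without 10 µg library 1 or 3 or 1 µg library 3 (adjusted p from 0.106 to 0.212), and for eIF3 they were Eif3a without 10 µg library 2 or 3 or 1 µg library 1 (adjusted p from 0.115 to 0.178), Eif3b without 10 µg library 1 or 2 or 1 µg library 2 (adjusted p from 0.0508 to 0.234) and Eif3l without 10 µg library 2 or 3 or 1 µg library 2 or 3 (adjusted p from 0.0947 to 0.15). Eif3c passed in those fits but not when just these libraries were fitted (adjusted p = 0.0501). For Eif4e the dose difference was 0.01 ± 0.05, with a 95% interval from -0.10 to 0.12, and for Eif2s2 it was 0.10 ± 0.06, from -0.03 to 0.22. The intervals of Eif2s1 (-0.16 to 0.02), Eif2b5 (-0.15 to 0.07) and Eif6 (-0.03 to 0.21) also held 0.

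**Figure D3:**
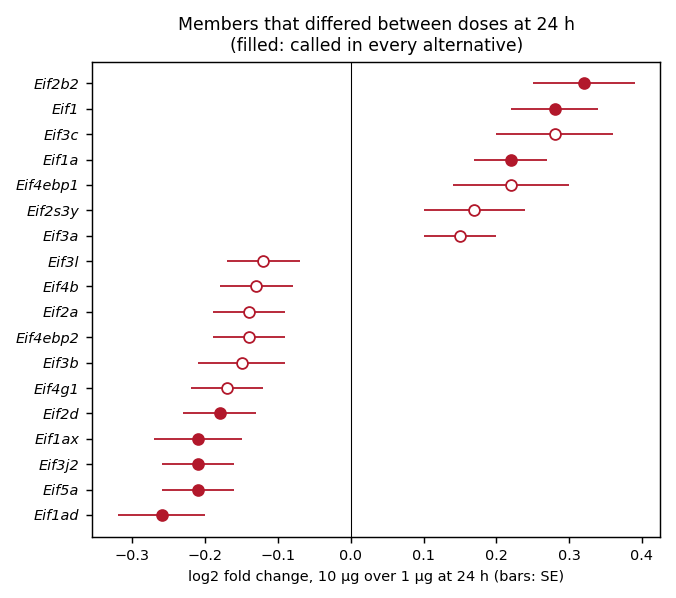
Log2 fold change of 10 µg over 1 µg at 24 h for the 18 members that passed an adjusted p of 0.05, with bars of 1 SE; filled points passed in each of the 12 alternatives run. The highest is Eif2b2 (0.32), the lowest is Eif1ad (-0.26), and 8 points are filled.

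The 24 h and 6 h libraries of the same dose compare peptide-treated cells only, though time in culture differs with the time of treatment. At 10 µg, 44 of 50 members differed, 12 higher and 32 lower at 24 h, where 69.2% of all tested genes were called, 34.0% higher and 35.2% lower. At 1 µg it was 42, 12 higher and 30 lower, where 60.7% were called, 30.3% higher and 30.5% lower. The log2 differences of the higher members at 10 µg were Eif4ebp1 (1.15), Eif3c (0.72), Eif2s2 (0.68), Eif1 (0.48), Eif3f (0.47), Eif2s3y (0.42), Eif2b2 (0.34), Eif2d (0.33), Eif3h (0.28), Eif4e3 (0.24), Eif4b (0.22) and Eif3e (0.15). At 1 µg they were Eif4ebp1 (1.02), Eif2s2 (0.64), Eif3c (0.43), Eif3f (0.41), Eif2d (0.38), Eif2s3y (0.33), Eif3h (0.31), Eif4b (0.28), Eif4e3 (0.25), Eif2a (0.23), Eif1 (0.23) and Eif3e (0.21). Eif4ebp1, Eif2s2 and Eif3f had the smallest p-values among the rises at both doses (adjusted p = 2.75e-10, 2.41e-09 and 4.6e-09 at 10 µg). Lower at 24 h with 10 µg by at least 0.50 were Eif5a (-1.01), Eif4g1 (-0.96), Eif3b (-0.91), Eif1ax (-0.88), Eif4e (-0.82), Eif2s1 (-0.73), Eif3j2 (-0.71), Eif3j1 (-0.68), Eif4a3l2 (-0.68), Eif4a3l1 (-0.68), Eif2b1 (-0.66), Eif4a1 (-0.55), Eif4a3 (-0.53), Eif1ad (-0.53) and Eif2b4 (-0.50). The other falls at 10 µg, down to -0.12, were those of Eif3l, Eif2s3x, Eif6, Eif4h, Eif3g, Eif2b5, Eif5, Eif5b, Eif4e2, Eif4ebp2, Eif4g2, Eif1b, Eif3d, Eif3i, Eif1a, Eif4a2 and Eif4g3.

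At 1 µg the steepest falls between 6 h and 24 h were those of Eif5a (-0.81), Eif4g1 (-0.81), Eif3b (-0.76), Eif1ax (-0.74), Eif4e (-0.70), Eif2b1 (-0.62), Eif2s1 (-0.61), Eif4a1 (-0.56), Eif3j2 (-0.52) and Eif3j1 (-0.51). The further 20 ran to -0.13 and belonged to Eif1b, Eif4a3l2, Eif4h, Eif6, Eif4a3, Eif2s3x, Eif1ad, Eif4g2, Eif4e2, Eif2b5, Eif5, Eif5b, Eif2b3, Eif2b4, Eif3g, Eif4ebp2, Eif3l, Eif1a, Eif3d and Eif4g3. Calls that ended when 1 library was left out were, at 10 µg, those of Eif3i, Eif4g3, Eif4a3l1, Eif3e, Eif4a2 and Eif1a, with adjusted p-values of 0.0537 for Eif1a without 10 µg 24 h library 1 and 0.111 for Eif4a3l1 without 10 µg 6 h library 3. For Eif3i the library was 10 µg 6 h number 2 (adjusted p = 0.0798), and for Eif4a2 they were 10 µg 6 h number 1 and 10 µg 24 h number 1 (adjusted p = 0.0737 and 0.0898). Eif3e lost its call without 10 µg 6 h library 2 or 3 or 10 µg 24 h library 1 or 3, with adjusted p-values from 0.0523 to 0.074. Eif4g3 lost its call at 10 µg without 6 h library 3 or 24 h library 2 or 3 (adjusted p from 0.073 to 0.221). At 1 µg it did so without 6 h library 1 or 24 h library 2 (adjusted p = 0.13 and 0.0549). Scaling by library size alone ended the 10 µg calls of Eif1b, Eif3d, Eif3i, Eif1a, Eif4a2 and Eif4g3 (adjusted p from 0.0826 to 0.695). With the same scaling the 1 µg calls of Eif2b4, Eif3d, Eif2b3 and Eif4g3 ended (adjusted p from 0.0528 to 0.699). Without the low-count filter the 10 µg call of Eif3e ended (adjusted p = 0.0537).

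The interaction of dose and time asks if the step between 6 h and 24 h was larger at 10 µg than at 1 µg. It passed for 2 of 50 members, where 18.6% of all tested genes passed, 7.58% with a positive value and 11.0% with a negative one. Eif1 had an interaction of 0.25 ± 0.08, adjusted p = 0.0321, and Eif2b2 one of 0.29 ± 0.10, adjusted p = 0.0397. For both the step with time was larger at 10 µg. The 24 h over 6 h difference of Eif1 was 0.48 at 10 µg and 0.23 at 1 µg, and that of Eif2b2 was 0.34 at 10 µg and 0.05 at 1 µg. The count of 2 members went to between 0 and 6 when 1 library was left out. Eif1 lost its call without 1 µg 6 h library 1 or 2, 1 µg 24 h library 2, 10 µg 6 h library 2 or 3 or 10 µg 24 h library 2 or 3 (adjusted p from 0.0671 to 0.116). Eif2b2 lost it without 1 µg 6 h library 1, 1 µg 24 h library 1 or 2, 10 µg 6 h library 1 or 2 or 10 µg 24 h library 2 or 3 (adjusted p from 0.0585 to 0.141).

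Genes that act on the factors were read from 4 lists, also chosen with earlier results of these data known. Ddit3, listed for the integrated stress response, was not found by that symbol in the count table, so its change was not tested. Of 10 tested genes for eIF2 kinases, the eIF2 phosphatase and the integrated stress response, 4 rose and 2 fell at 10 µg for 24 h, and 5 rose and 2 fell at 1 µg. Calls thus covered 60% of them at 10 µg (all tested genes, 70.3%) and 70% at 1 µg (all tested genes, 61.8%). Atf4, the transcription factor whose mRNA is translated when eIF2 is phosphorylated, had 644, 685 and 735 CPM at 10 µg for 24 h, 532, 610 and 586 CPM at 1 µg for 24 h, and 284, 256 and 282 CPM in untreated cells. It rose, with a log2 fold change of 1.33 ± 0.06 (SE, adjusted p = 2.46e-16) at 10 µg and of 1.07 ± 0.06 (adjusted p = 6.25e-14) at 1 µg. Trib3, a target and feedback inhibitor of that factor, averaged 212 ± 30 CPM at 10 µg for 24 h, 118 ± 31 CPM at 1 µg for 24 h and 5.85 ± 0.681 CPM in untreated cells, with log2 fold changes of 5.18 and 4.33. Ppp1r15a, the inducible subunit of the phosphatase that dephosphorylates eIF2, averaged 165 ± 22.5 CPM at 10 µg for 24 h, 80 ± 10.1 CPM at 1 µg for 24 h and 30.4 ± 1.39 CPM in untreated cells. Its log2 fold changes were 2.44 and 1.40 at 24 h. At 10 µg for 6 h it was already higher, by 0.40 ± 0.10, adjusted p = 0.0317. Eif2ak2, the kinase that senses double-stranded RNA, fell, with log2 fold changes of -1.13 and -0.73, and Eif2ak4, the kinase that senses uncharged tRNA, rose, with 0.46 and 0.46. Between the doses at 24 h, 10 µg over 1 µg, the log2 differences were 1.05 for Ppp1r15a, 0.84 for Trib3, 0.26 for Atf4 and -0.40 for Eif2ak2, each past the threshold. The kinases Eif2ak1 and Eif2ak3 passed at neither dose, with -0.04 and -0.07 for Eif2ak1 and 0.04 and -0.03 for Eif2ak3.

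Of 16 genes for the control of mTORC1, the MNK kinases and eIF4F, 10 rose and 5 fell at 10 µg for 24 h, and 7 rose and 4 fell at 1 µg. The called share was 93.8% at 10 µg, where that of all tested genes was 70.3%, and 68.8% at 1 µg, where it was 61.8%. Sesn2 and Ddit4, which restrain mTORC1, had log2 fold changes at 10 µg and 1 µg of 2.79 and 2.41 for Sesn2 and 2.38 and 2.68 for Ddit4. Sesn2 averaged 80.4 ± 6.92 CPM at 10 µg for 24 h, 61.6 ± 0.767 CPM at 1 µg for 24 h and 11.6 ± 0.68 CPM in untreated cells, without overlap. Mknk1, a kinase that phosphorylates eIF4E, rose, with 1.66 and 1.38, as did Pdcd4, which sequesters the eIF4A helicase, with 1.5 and 1.56. Larp1, which binds mRNAs that begin with an oligopyrimidine tract, fell, with -0.67 and -0.47. Deptor, an mTOR inhibitor, had log2 fold changes of 0.32 and 0.76 at 24 h and was lower at 10 µg for 6 h (-0.26 ± 0.07, adjusted p = 0.0195). Rheb, the GTPase that switches mTORC1 on, had 0.01 and -0.05, and Mtor itself had -0.24 at 10 µg (adjusted p = 0.000166) and -0.08 at 1 µg (adjusted p = 0.146).

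**Figure D4:**
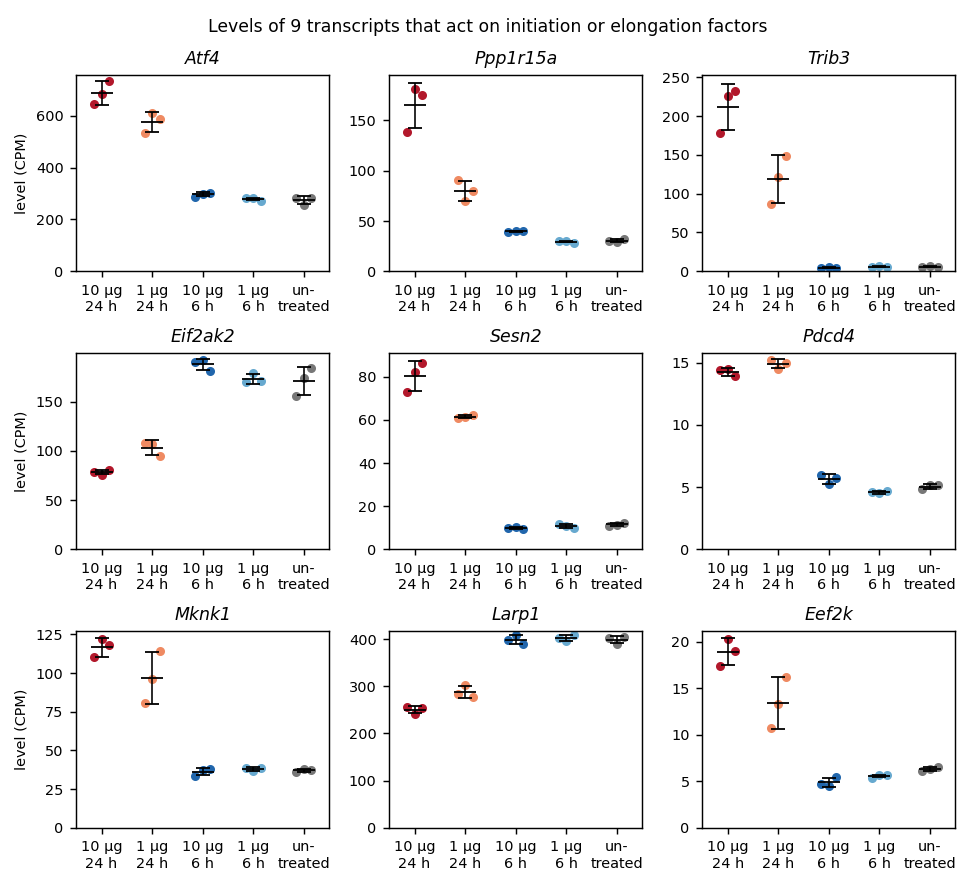
Level in CPM in each of the 15 libraries for 9 genes that act on initiation or elongation factors, with bars for the mean and SD of 3 libraries. Atf4 averaged 688 ± 45.7 CPM at 10 µg for 24 h and 274 ± 15.6 CPM in untreated cells, and in the panels of Eif2ak2 and Larp1 the 24 h libraries are the lowest.

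Of 11 genes for scanning helpers, reinitiation, ribosome recycling and poly(A) binding, 1 rose and 5 fell at 10 µg for 24 h, and 2 rose and 6 fell at 1 µg. Of these genes 54.5% were called at 10 µg, against 70.3% of all tested genes, and 72.7% at 1 µg, against 61.8%. The helicase Ddx3x averaged 388 ± 7.13 CPM at 10 µg for 24 h, 451 ± 12.8 CPM at 1 µg for 24 h and 698 ± 6.82 CPM in untreated cells (log2 fold changes -0.85 and -0.63). Abce1, which splits ribosomes after termination, fell, with -0.69 and -0.48, and Dhx29, a scanning helicase, with -0.44 and -0.41. Paip2, which pulls poly(A)-binding protein off mRNA, rose, with 0.54 and 0.39. Among 10 tested genes of elongation, termination and hypusination, 3 rose and 5 fell at 10 µg and 3 rose and 6 fell at 1 µg. Calls thus covered 80% of them at 10 µg (all tested genes, 70.3%) and 90% at 1 µg (all tested genes, 61.8%). Eef2k, the kinase that inhibits elongation factor eEF2, averaged 18.9 ± 1.45 CPM at 10 µg for 24 h, 13.4 ± 2.71 CPM at 1 µg for 24 h and 6.28 ± 0.229 CPM in untreated cells (log2 fold changes 1.59 and 1.09), and Eef2 rose, with 0.37 and 0.40. Gspt1 and Etf1, the release factors, fell, with -0.96 and -0.83 for Gspt1 and -0.31 and -0.36 for Etf1, and Eef1d, an exchange factor for eEF1A, with -0.56 and -0.42. Dohh, which completes the hypusine residue of eIF5A, fell, with -0.40 and -0.37, and Dhps, which begins it, had -0.20 ± 0.11, adjusted p = 0.104, at 10 µg and -0.46 ± 0.11, adjusted p = 0.000951, at 1 µg.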

How the data were processed

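The deposited values are raw read counts, whole numbers in a single table of gene symbols by libraries. Library totals were 19085148 to 22434642 counts, and 0 columns were left unmatched to a library. The submitters' processing notes name the build GRCm39, and the libraries were stranded mRNA libraries per the labels. Not given in the sources used here are aligner, annotation, counting tool and strand setting.

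The counts were fitted in R 4.3.3 with edgeR 4.0.16: filterByExpr left 12401 genes holding 99.97% of counts, libraries were scaled by TMM, and all 15 libraries shared 1 robust quasi-likelihood fit with 10 residual degrees of freedom (common biological coefficient of variation 5.68%). Tests were two-sided, with Benjamini-Hochberg adjustment over all tested genes, and a gene was called where that value was below 0.05. Each SE was derived as the log2 fold change divided by the root of F. Levels are CPM with the SD over n = 3 libraries. Alternatives were DESeq2 1.42.0, RLE scaling, library size only, no filter, only the groups compared, a replicate block, and each library left out.

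The members and gene lists were chosen with earlier results of these data known. Every called member is named, the lists of other genes by up to 4 called genes of smallest p, and Rheb, Mtor, Eif2ak1, Eif2ak3, Dohh and Dhps were added after their values were seen. Values by library are given for the 3 called rises and 3 called falls of smallest p in each comparison. Genes sharing near-identical copies or overlapping others are named as uncertain. Promoter windows and lengths came from RefSeq (GRCm38.p6) and GENCODE M21 and were used by gene symbol.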

Additional observations from a re-analysis of the deposited data

Results flagged for a closer look

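Both results here are flagged because the step between 6 h and 24 h differed between the doses by a test of that difference. That test passed for 2 of 50 members (4.0%), against 18.6% of all tested genes. For Eif1 the step was larger at 10 µg than at 1 µg by 0.25 log2 units, and for Eif2b2 by 0.29 log2 units. Neither passed in all 18 alternatives run: Eif1 lost its call in 7 of them and Eif2b2 in 8.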

How the results depend on the processing

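No called change reversed its direction under any alternative run. Calls that passed in each of the 12 alternatives numbered 34 of 41 at 10 µg for 24 h, 37 of 43 at 1 µg for 24 h, 8 of 18 between doses at 24 h, 36 of 44 for 24 h over 6 h at 10 µg and 38 of 42 at 1 µg. At 10 µg for 6 h the count of 1 member called became 2 under RLE scaling, 4 with library size only, 7 when only the groups compared were fitted and 4 with DESeq2, and 0 to 1 with a library left out. Between doses at 6 h the count of 0 became 4 with only those groups and 1 with DESeq2. Between doses at 24 h the 18 became 8 with only those groups and 12 to 18 with a library left out. The interaction count of 2 became 1 with only those groups, 3 with library size only, 4 with DESeq2 and 0 to 6 with a library left out. With a library left out, the other counts ran from 37 to 39 at 10 µg for 24 h, 41 to 43 at 1 µg for 24 h, 41 to 44 for 24 h over 6 h at 10 µg and 41 to 44 at 1 µg. The cause of these moves was not tested. Scaling by library size alone moved the median of all genes by about 0.1 log2 units where 24 h was compared with untreated cells or with 6 h. Between doses at 24 h it moved by -0.01. The split at 10 µg for 24 h changed to 14 higher and 26 lower under that scaling. The calls it ended included that of Eif3k at 1 µg for 24 h, whose log2 fold change was -0.30, or -0.19 under that scaling. Same-numbered libraries did not deviate together (30 pairs, correlation -0.0814 to 0.0963), and neither did those of other numbers (60 pairs, -0.0943 to 0.12). Whether the numbers pair the libraries is not settled by this, since paired libraries need not deviate together. With the replicate block the calls against untreated cells numbered 40 (10 µg, 24 h), 43 (1 µg, 24 h), 1 (10 µg, 6 h) and 0 (1 µg, 6 h). Between doses they were 16 at 24 h and 0 at 6 h, between times 44 at 10 µg and 42 at 1 µg, and for the interaction 2. The 19 untested members held 4 counts or fewer in each library, 8 of them 0 in all, so no change in them was tested.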
